A study of Mus musculus with 23 samples.

Results

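The hypothalamus (HT) and the striatum (ST) of mice on standard chow (SC) were compared with 8 arrays, 4 per region, taken from the 23 arrays of a series on chow and chocolate feeding. The arrays were chosen by their labels, as every array of HT or ST from an SC mouse, and the HT and ST arrays of 1 mouse share the number in their names (L52, L54, L56 and L58). All mice were female C57BL/6, 5 weeks of age when the experiments began, and were housed individually. SC mice ate chow for 8 weeks, and the tissues were dissected after an 11 day battery of behavioral tests. In these tests SC mice also received a chocolate mixture (CM) for a short daily period of limited access. A further test offered chow beside CM made bitter with quinine. The initial diet was then given again before the mice were killed. The other mice of the series had free choice of chow and CM for the same 8 weeks, and their 8 HT and ST arrays served as a second set of animals. The sample labels call the HT arrays thalamic region, whereas the study design calls them hypothalamus; the name HT was kept and the dissection was checked against marker genes. Each array was a one-color Agilent mouse array, and its values are log2 signals on which 1 unit is a 2-fold difference in brightness. In bulk tissue, fewer cells of a type and less RNA per cell cannot be told apart.

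The hypothalamus holds many small groups of neurons that each make a particular peptide and control feeding, arousal, water balance, temperature and the pituitary. The striatum is built mostly of GABAergic projection neurons, which carry either the Drd1 or the Drd2 dopamine receptor and receive dopamine from the midbrain. The thalamus lies directly above the hypothalamus, the midbrain behind it and the cortex over the striatum, so that genes of these neighbors were followed as well.

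The promoters of 6 genes that mark the regions are shown, because each of these genes differed between HT and ST and a reader can see what kind of start each one has. Sequences run from 250 bases before to 50 bases after the transcription start in RefSeq (GRCm38.p6), 5′ to 3′ on the strand of the gene. Where a gene had several starts, the window with the most matches to the motif marked in it was chosen. Capitals mark TATAAA, the core of a TATA box, or in Slc17a6 TAATTA, a core bound by many homeodomain proteins. In Hcrt (chr11:100762882-100763181, minus strand) TATAAA began at position -33 from the start and in Pmch (chr10:88090822-88091121, plus strand) at -27, the usual place of a TATA box. In Rgs9 (chr11:109298132-109298431, minus strand) it began at -195. Slc17a6 (chr7:51624387-51624686, plus strand) held TAATTA at -81. The windows of Slc6a3 (chr13:73536497-73536796, plus strand) and Drd2 (chr9:49340153-49340452, plus strand) held no TATAAA and are printed without capitals.
Hcrt: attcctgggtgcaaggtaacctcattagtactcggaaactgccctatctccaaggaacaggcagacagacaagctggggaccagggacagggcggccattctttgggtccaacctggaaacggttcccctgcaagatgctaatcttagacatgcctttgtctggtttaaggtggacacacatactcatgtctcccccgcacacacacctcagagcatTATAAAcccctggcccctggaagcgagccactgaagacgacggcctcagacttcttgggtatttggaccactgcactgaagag
Pmch: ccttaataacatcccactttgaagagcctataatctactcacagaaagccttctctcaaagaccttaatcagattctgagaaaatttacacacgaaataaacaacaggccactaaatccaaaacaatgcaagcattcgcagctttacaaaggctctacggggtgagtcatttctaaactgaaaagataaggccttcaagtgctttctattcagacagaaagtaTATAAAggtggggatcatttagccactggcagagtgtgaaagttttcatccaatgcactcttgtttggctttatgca
Slc17a6: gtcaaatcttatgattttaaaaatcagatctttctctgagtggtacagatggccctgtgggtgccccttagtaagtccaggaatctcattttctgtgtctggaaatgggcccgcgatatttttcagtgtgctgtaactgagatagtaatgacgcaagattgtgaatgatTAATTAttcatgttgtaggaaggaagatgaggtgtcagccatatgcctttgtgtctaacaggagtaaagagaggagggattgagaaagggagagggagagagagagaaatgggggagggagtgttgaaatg
Slc6a3: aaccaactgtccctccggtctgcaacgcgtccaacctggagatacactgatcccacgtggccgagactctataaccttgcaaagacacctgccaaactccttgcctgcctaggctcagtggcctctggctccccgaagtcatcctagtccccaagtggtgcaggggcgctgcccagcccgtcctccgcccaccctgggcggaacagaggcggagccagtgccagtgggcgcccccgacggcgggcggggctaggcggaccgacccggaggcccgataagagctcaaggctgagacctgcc
Rgs9: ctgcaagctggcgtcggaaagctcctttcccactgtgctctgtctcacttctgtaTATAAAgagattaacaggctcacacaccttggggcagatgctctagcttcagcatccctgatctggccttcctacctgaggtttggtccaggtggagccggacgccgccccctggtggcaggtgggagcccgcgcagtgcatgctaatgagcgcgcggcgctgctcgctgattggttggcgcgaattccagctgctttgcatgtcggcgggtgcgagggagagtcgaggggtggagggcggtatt
Drd2: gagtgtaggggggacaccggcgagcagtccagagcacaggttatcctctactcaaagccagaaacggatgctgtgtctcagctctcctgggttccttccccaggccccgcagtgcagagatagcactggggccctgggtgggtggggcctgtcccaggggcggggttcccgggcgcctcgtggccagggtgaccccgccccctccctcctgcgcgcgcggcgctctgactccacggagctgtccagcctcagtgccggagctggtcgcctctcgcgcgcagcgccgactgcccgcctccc

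Such windows were searched on both strands for 4 short motifs in every gene that had a window. The shares are of genes, and a gene with several starts counted if any of its windows held the motif. TATAAA was found in 15.7% of all 27025 genes with a window and in 11.6% of the 14544 measured genes with a window. It was found in 14.4% of the genes higher in HT (361 with a window) and in 13.7% of the genes higher in ST (453 with a window). TAATTA was found in 4.32% of the measured genes, 4.99% of the genes higher in HT and 4.86% of the genes higher in ST. TGACGTCA, the cyclic AMP response element, was found in 2.98%, 2.77% and 1.77% of these, and TGTTTAC, a forkhead core, in 3.35%, 2.77% and 3.09%. These shares are descriptions of the windows and were not tested.

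Several arrays carried genes of a neighboring tissue. For Hcrt, Pmch, Oxt and some other genes the difference is also given without such an array. Without the ST array of L52 the log2 difference, HT minus ST, was 4.23 for Dlk1, 4.18 for Calb2 and 4.04 for Ebf3. With any 1 array left out it ranged from -4.97 to -4.07 for Drd1 and from -5.02 to -4.14 for Adora2a. For many other genes only the difference over all arrays is given. How far the size of those differences rests on such an array is not shown. The ST array of L52 held hypothalamic peptides, with a log2 signal of 15.45 for Hcrt, 14.4 for Pmch, 14.32 for Oxt and 12.9 for Avp. The HT array of L54 was low in Hcrt (13.24) and high in striatal genes such as Adora2a (10.53, against 8.04 to 8.07 on the other HT arrays). On the ST arrays of L52 and L56 the thalamic genes Tcf7l2 (9.58 and 8.92) and Prkcd (11.71 and 11.22) were higher than on those of L54 and L58. The same held for Slc17a6 (11.2 and 10.62, against 7.7 and 8.14), which marks neurons of the diencephalon and not of the thalamus alone. The ST arrays of L54 and L58 were in turn higher in the cortical genes Tbr1 (11.37 and 10.51) and Slc17a7 (11.68 and 12.05) than those of L52 and L56 (Slc17a7 9.08 and 9.05). Agrp and Pomc, peptides of the arcuate nucleus, were high only on the HT array of L58, at 10.89 and 12.8 against at most 6.84 and 9.57 on the other HT arrays. Their part in the differences below was not tested beyond leaving arrays out.

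**Figure D1:**
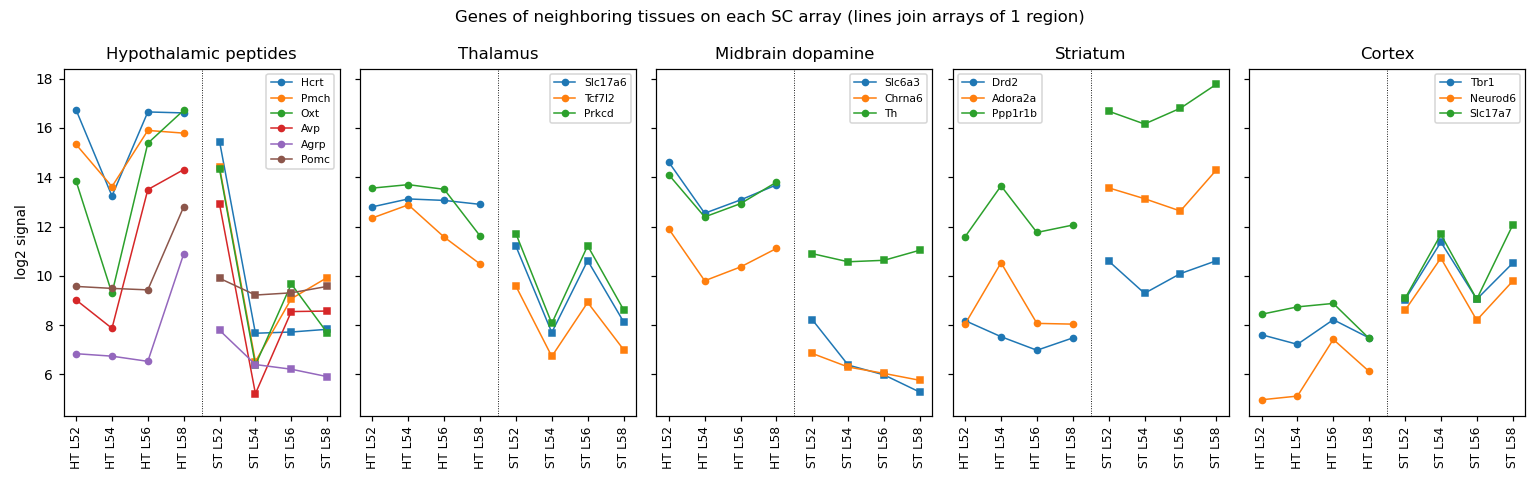
Log2 signal (y axis) of marker genes of 5 tissues on each of the 8 SC arrays (x axis, named by region and mouse), with HT arrays as circles left of the dotted line and ST arrays as squares right of it, and lines joining arrays of 1 region. The hypothalamic peptides were high on the ST array of L52. The genes of the thalamus panel, of which Slc17a6 marks diencephalic neurons more broadly, were higher on the ST arrays of L52 and L56. All 4 HT arrays carried thalamic and midbrain dopamine genes.

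The label HT was only partly borne out by the markers. Hcrt and Pmch, which mark neurons of the lateral hypothalamus, were bright on the HT arrays, at 13.24 to 16.73 and 13.62 to 15.9. Nkx2-1, a transcription factor that marks most of the hypothalamus, had a log2 difference of 0.12 (adjusted p = 0.879 in limma). Sim1, of its paraventricular part, had one of 0.82 (adjusted p = 0.145). Of 29 measured hypothalamic transcription factors, however, 8 were higher in HT and 1 higher in ST at the thresholds given below, with a median log2 difference of 0.73. Thalamic genes and midbrain dopamine genes were on the other hand high on all 4 HT arrays. The label ST was borne out by Drd2 (9.29 to 10.61, against 6.98 to 8.18 in HT), Adora2a and Ppp1r1b, whose 4 ST arrays all lay above the 4 HT arrays. Spots well above background numbered 40330 to 42232 on the HT arrays and 38191 to 39380 on the ST arrays, no spot was saturated, and the 8 arrays correlated with r = 0.978 to 0.994 within a region and 0.968 to 0.984 between regions across probes.

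Of 31395 probes tested, 584 were differentially expressed (DE) and higher in HT, which is 1.86%, and 863 were DE and higher in ST, which is 2.75%. DE means an adjusted p under 0.01 (limma, Benjamini-Hochberg) and at least a 2-fold difference between HT and ST. Taken at 1 transcript per gene, 476 of 18687 genes (2.55%) were DE and higher in HT and 601 (3.22%) DE and higher in ST. The counts of DE genes in the lists below are to be set beside these shares. At an adjusted p under 0.05 alone (limma), 1960 of the 18687 genes were higher in HT and 1928 higher in ST. An unadjusted p under 0.05 was reached by 9814 of the 31395 probes. List counts at these looser thresholds are to be set beside those numbers. Differences of at least 4-fold were found for 108 probes higher in HT and 222 higher in ST, and differences of at least 16-fold for 6 and 12. The median size of a log2 difference was 1.4 among probes higher in HT (median SE 0.21), 1.51 among those higher in ST (median SE 0.18) and 0.22 among all probes. In 1414 of the 1447 DE probes the 4 HT and the 4 ST arrays did not overlap (97.7%, against 21.7% of all probes), and in 1444 all 4 mice differed in the same direction.

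**Figure D2:**
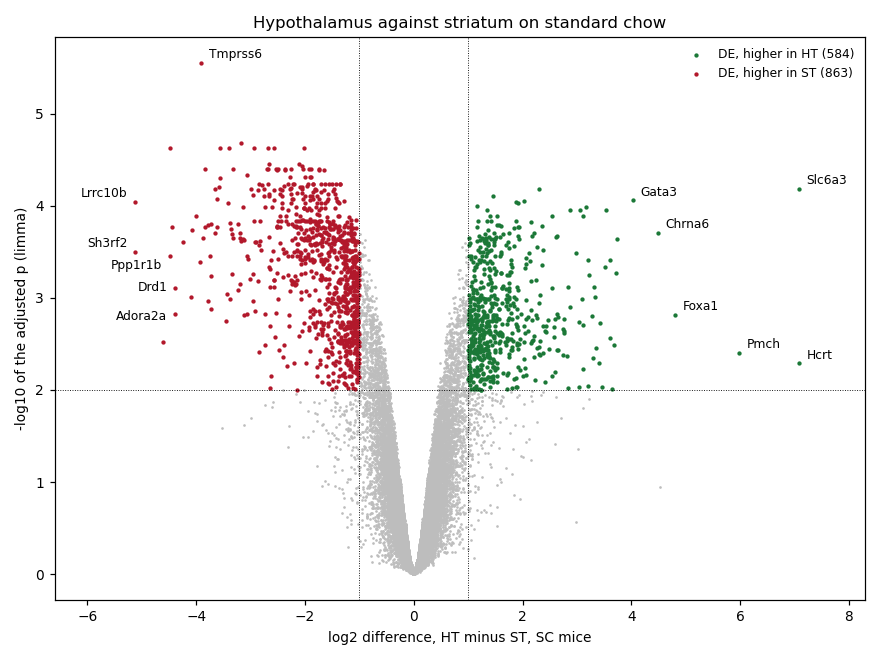
Log2 difference between HT and ST in SC mice (x axis, HT minus ST) against the -log10 of the adjusted p from limma (y axis), with 1 point per probe and dotted lines at 2-fold and at an adjusted p of 0.01. The 584 probes higher in HT are green, the 863 higher in ST red, and Hcrt and Slc6a3 lie farthest to the right.

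The slide that an array lay on was crossed with the region in part. HT arrays of L52, L54 and L56 and the ST array of L58 were on slide 3, the HT array of L58 and the ST arrays of L54 and L56 on slide 2, and the ST array of L52 on slide 1. When slides were fitted as fixed blocks, 1441 of the 1447 (99.6%) had an adjusted p under 0.05 in limma, as did 6047 of all 31395 probes, and 1176 were still DE. The ST array of L52 was alone on its slide and did not enter the difference in that fit. The difference then rested on a single HT array on slide 2 and a single ST array on slide 3, both of L58. With the mouse as a fixed replicate block, a fully paired comparison, 1201 probes were DE, 468 higher in HT and 733 higher in ST.

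Hcrt, the precursor of the orexin peptides that sustain waking and feeding, showed the largest difference. Its log2 signal was 16.73, 13.24, 16.65 and 16.61 on the HT arrays of L52, L54, L56 and L58 and 15.45, 7.67, 7.72 and 7.83 on the ST arrays of the same mice. The HT arrays were high in all 4 mice, but the ST array of L52 reached their level and the groups overlapped. The probe lies at chr11:100623007-100623066 in the array annotation (mm9). The fitted log2 difference was 7.09 ± 1.31 (SE, n = 4 per region), 136-fold, with an adjusted p = 0.00512 in limma. Here and below the fitted difference weights the arrays, so that it can depart from the difference of the plain means. These were 15.81 ± 1.71 and 9.67 ± 3.86 (SD) for Hcrt. The weights were 1.288, 1.579, 2.285 and 0.96 for the HT arrays of L52, L54, L56 and L58. They were 0.409, 0.836, 1.617 and 0.405 for the ST arrays, so that the array of L56 counted most in both regions. Without the ST array of L52 the difference was 8.04 (adjusted p = 0.00126). Hcrt was no longer DE without the HT array of L52 (6.89, adjusted p = 0.0146), the HT array of L56 (6.82, 0.0155), the ST array of L56 (7.07, 0.0127) or the ST array of L58 (6.97, 0.0109), nor without array weights (6.14, adjusted p = 0.0357).

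Pmch, the precursor of melanin-concentrating hormone, an appetite-promoting peptide of the same area, followed the same pattern. Its log2 signal was 15.33, 13.62, 15.9 and 15.79 in HT and 14.4, 6.52, 9.07 and 9.93 in ST. The ST array of L52 again lay among the HT arrays, above that of L54 (probe at chr10:87555031-87555090, mm9). The fitted log2 difference was 5.98 ± 1.05 (SE, n = 4), 63.2-fold, with an adjusted p = 0.00397 in limma, and 7.02 (adjusted p = 0.00125) without the ST array of L52. Pmch was no longer DE without the HT array of L52 (5.98, adjusted p = 0.0114) or of L56 (5.67, 0.0137), nor without array weights (5.18, 0.0317).

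Slc17a6, the vesicular glutamate transporter of diencephalic neurons, was even across the HT arrays. Its log2 signal was 12.8, 13.12, 13.06 and 12.9 in HT and 11.2, 7.7, 10.62 and 8.14 in ST. All HT arrays lay above all ST arrays (probe at chr7:58926067-58926126, mm9), among which L52 and L56 were high. The fitted log2 difference was 3.36 ± 0.58 (SE, n = 4), 10.2-fold, with an adjusted p = 0.00351 in limma, and 3.42 (adjusted p = 0.0149) with the mouse as a fixed replicate block. It ranged from 2.51 to 4.75 with 1 array left out, and was no longer DE without the HT array of L54 (3.3, adjusted p = 0.0103) or of L56 (3.31, 0.0124).

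Drd2, the dopamine receptor of the indirect striatal pathway, was higher in ST in every mouse. Its log2 signal was 8.18, 7.53, 6.98 and 7.48 in HT and 10.6, 9.29, 10.09 and 10.61 in ST, and the groups did not overlap (probe at chr9:49215047-49215106, mm9). The fitted log2 difference, HT minus ST, was -2.56 ± 0.32 (SE, n = 4), 5.89-fold higher in ST, with an adjusted p = 0.000645 in limma, and Drd2 stayed DE in every alternative analysis.

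**Figure D3:**
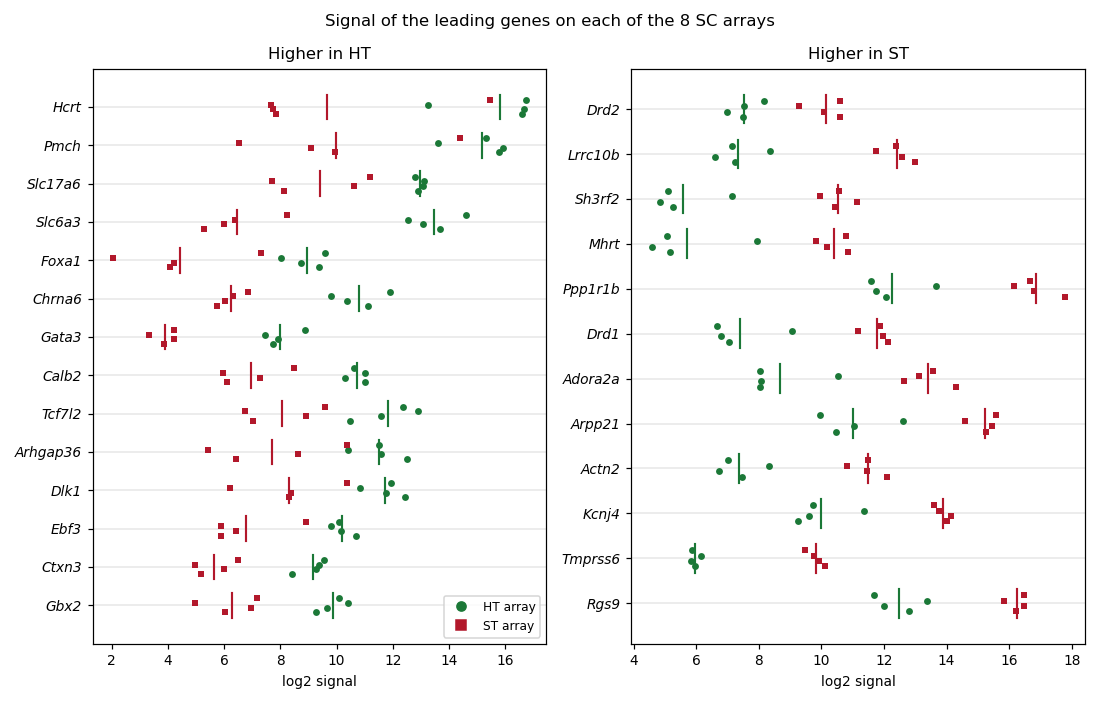
Log2 signal (x axis) on the 4 HT arrays (green circles) and 4 ST arrays (red squares) of leading genes, with genes higher in HT in the left panel and genes higher in ST in the right panel and a vertical bar at each group mean. Among these genes the groups overlap for Hcrt and Pmch, where the ST array of L52 is at 15.45 and 14.4, and the HT array of L54 lies nearest to the ST arrays for genes such as Drd1 (9.06) and Adora2a (10.53).

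Among the genes that passed the thresholds with groups that did not overlap, the largest rise in HT was that of Slc6a3, the dopamine transporter of midbrain neurons. Its log2 signal was 14.61, 12.54, 13.08 and 13.69 in HT and 8.22, 6.38, 5.98 and 5.28 in ST. No ST array came within 4 units of an HT array (probe at chr13:73715973-73716032, mm9). The fitted log2 difference was 7.08 ± 0.52 (SE, n = 4), 136-fold, with an adjusted p = 6.52e-05 in limma, and was called in all alternatives. Further dopamine neuron genes were among the 12 largest rises. Foxa1, a transcription factor of midbrain dopamine neurons, had a log2 difference of 4.80 (27.8-fold, adjusted p = 0.00152), with ST well above background on 1 of 4 arrays. Chrna6, a nicotinic receptor subunit of these neurons, had one of 4.49 (22.4-fold, adjusted p = 0.000196).

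Of 21 measured genes of midbrain dopamine neurons, a list put together after the values had been seen, 12 were DE and higher in HT, and the list's median log2 difference was 1.90 against 0.03 over all genes. They included Th, the rate-limiting enzyme of dopamine synthesis (2.47, adjusted p = 0.00175), Slc18a2, the vesicular monoamine transporter (2.76, adjusted p = 0.00168), and Ret, a growth factor receptor (3.42, adjusted p = 0.00188). Lmx1a (2.83) and Foxa2 (not well above background on any ST array and at least 5.11-fold higher in HT), transcription factors of the midbrain floor, also rose. Th was 14.1, 12.39, 12.93 and 13.8 in HT and 10.9, 10.57, 10.63 and 11.04 in ST, without overlap. Drd2, which dopamine neurons carry as an autoreceptor, was the list's only DE gene that was higher in ST. The mean log2 signal of the list was 8.98 to 10.07 on the HT arrays and 7.05 to 8.08 on the ST arrays, so that it was high on every HT array, and its part in the other differences was not tested.

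The other large rises were mostly in transcription factors and in genes of the thalamus. Gata3, a transcription factor of midbrain and hindbrain neurons, was not well above background on any ST array and at least 14.8-fold higher in HT (adjusted p = 8.71e-05). Ebf3 (3.60), Gbx2 (3.52) and Ctxn3 (3.53) were DE as well, the latter pair with ST well above background on 3 of 4 arrays. Calb2, the calcium-binding protein calretinin, was 10.62, 11.01, 10.3 and 11.02 in HT and 8.47, 5.96, 7.27 and 6.09 in ST, a log2 difference of 3.73 ± 0.38 (SE, n = 4; adjusted p = 0.000232 in limma). Arhgap36 had a log2 difference of 3.65 (adjusted p = 0.00983), which was 3.60 (adjusted p = 0.0126) with the mouse as a fixed replicate block, and it was no longer DE in 4 of the 8 analyses with 1 array left out, those without the HT arrays of L52 (3.63), L56 (3.62) and L58 (3.38) and the ST array of L58 (3.17). Dlk1, an imprinted gene of neuroendocrine cells, was 11.95, 10.83, 11.74 and 12.43 in HT and 10.36, 6.21, 8.36 and 8.29 in ST, a log2 difference of 3.61 (adjusted p = 0.00271).

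Thalamic genes formed the list with the highest median. Of 18 measured, 12 were DE and higher in HT and none was DE and higher in ST, with a median log2 difference of 2.43. All 18 were higher in HT at an adjusted p under 0.05, as were 1960 of all 18687 genes. Tcf7l2, the transcription factor that marks the thalamus, was 12.35, 12.88, 11.57 and 10.48 in HT and 9.58, 6.73, 8.92 and 7.01 in ST. Its log2 difference was 3.69 ± 0.63 (SE, n = 4; adjusted p = 0.00328 in limma), and it was not DE with the mouse as a fixed replicate block (3.75, adjusted p = 0.0119) or with the slide as a fixed block (3.91, adjusted p = 0.0127). Cbln1, a synapse organizer (3.16, adjusted p = 0.000103), Rgs16 (2.88) and Gbx2 were also DE, while Prkcd, of the sensory thalamus, was not (3.12, adjusted p = 0.0155). The mean log2 signal of the list was 10.53 to 11.69 on the HT arrays and 8.04 to 9.74 on the ST arrays, lowest in HT on the array of L58. The number of DE genes of this list stayed between 8 and 15 in the alternatives.

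Hypothalamic neuropeptides differed in both directions. Of 30 measured, 8 were DE and higher in HT and 2 DE and higher in ST (against 2.55% and 3.22% of all genes), with a median log2 difference of 0.89. Beside Hcrt and Pmch, those higher in HT were Cartpt (2.31), which curbs feeding, Ghrh (2.55), the releasing hormone of growth hormone, Gal (1.88), Tac2 (1.89), Grp (1.81) and Nms (not well above background on any ST array and at least 3.15-fold higher in HT). Tac2, the precursor of neurokinin B, was 12.28, 12.22, 12.19 and 12.38 in HT and 11.46, 9.65, 10.54 and 10.03 in ST. The 4 HT arrays were nearly equal and lay above all ST arrays (adjusted p = 0.000759). Oxt, the precursor of oxytocin, was 13.84, 9.29, 15.38 and 16.72 in HT and 14.32, 6.38, 9.67 and 7.69 in ST, and its log2 difference of 4.53 ± 1.77 did not pass the test (adjusted p = 0.112 in limma; 5.78 and 0.0729 without the ST array of L52). Avp, the precursor of vasopressin, had a difference of 2.98 (adjusted p = 0.274), Agrp of 0.91 and Pomc of 0.61, none of them DE. The count of 8 was 5 without the ST array of L52 and 2 without the HT array of L52, the HT array of L56 or the ST array of L56, and 3 without the ST array of L58.

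Npy and Sst, peptides of the hypothalamus that striatal interneurons also make, were higher in ST. Npy was 9.69, 10.46, 10.39 and 10.63 in HT and 12.11, 13.15, 12.34 and 13.77 in ST, without overlap, a log2 difference of -2.40 (adjusted p = 0.000587). Sst had one of -1.20 (adjusted p = 0.00305). On the frontal cortex arrays of the same mice the mean log2 signal was 13.27 for Npy and 14.39 for Sst, against 12.84 and 14.5 in ST. Both were higher on the ST arrays of L54 and L58, which were also higher in cortical genes, than on those of L52 and L56 (Sst 14.49 and 15.23, against 13.98 and 14.3). The part of cortical tissue in these 2 differences was not tested.

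Hypothalamic transcription factors rose in HT in part. Of 29 measured, 8 were DE and higher in HT, with a list median of 0.73. They included Foxb1, Lhx9, Onecut3, Irx5, Zfhx3, Barhl1 and Lhx1. Irx5 was 6.38, 6.37, 6.07 and 6.3 in HT and 5.11, 3.85, 4.42 and 4.11 in ST, a log2 difference of 1.92 (adjusted p = 0.000213). Foxb1, of the mammillary body, had a log2 difference of 3.12 (adjusted p = 0.00585) with overlapping groups, since the ST array of L52 was at 8 and the HT arrays at 7.76 to 9.45, and ST was well above background on 2 of 4 arrays. It was not DE with the mouse as a fixed replicate block (3.06, adjusted p = 0.0201) or without the HT array of L52 (3.22), the HT array of L56 (3.11) or the ST array of L58 (2.88). Lhx9 had a log2 difference of 2.57 (adjusted p = 0.00205), and was not DE with the mouse (2.63, adjusted p = 0.0152) or the slide (2.70, adjusted p = 0.0152) as a fixed block. Bcl11a, which striatal and cortical neurons also express, was DE and higher in ST (-1.33, adjusted p = 0.0014), while another of its transcripts was not (0.55). The count of 8 was 4 with the mouse as a fixed replicate block, and 4 without the HT array of L52 or of L56 and 5 without the ST array of L58.

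Genes of striatal projection neurons were higher in ST almost throughout. Of 30 measured, 28 were DE and higher in ST, with a median log2 difference of -2.54. Ppp1r1b, which encodes the dopamine-regulated phosphatase inhibitor DARPP-32, was 11.59, 13.65, 11.76 and 12.06 in HT and 16.68, 16.16, 16.8 and 17.77 in ST. The groups were more than 2 units apart and the HT array of L54 was the highest of HT. The fitted log2 difference was -4.48 ± 0.50 (SE, n = 4), 22.3-fold higher in ST, with an adjusted p = 0.000347 in limma. Drd1, the dopamine receptor of the direct pathway, was 6.66, 9.06, 6.78 and 7.04 in HT and 11.88, 11.16, 11.98 and 12.12 in ST, a log2 difference of -4.39 (21-fold, adjusted p = 0.000779). Adora2a, the adenosine receptor that is paired with Drd2 in the indirect pathway, had the same difference of -4.39 (20.9-fold, adjusted p = 0.00149). For both, the HT array of L54 stood above the other HT arrays but below every ST array.

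Signaling genes of these neurons moved with the receptors. Rgs9, which shortens dopamine receptor signals, was 11.68, 13.39, 11.99 and 12.81 in HT and 16.46, 15.85, 16.49 and 16.23 in ST, a log2 difference of -3.87 (14.6-fold, adjusted p = 0.000223). Pde10a, a cyclic nucleotide phosphodiesterase, had one of -3.66 (adjusted p = 6.52e-05). The opioid peptide genes Penk (-3.18) and Pdyn (-1.77), the tachykinin gene Tac1 (-2.08) and the cannabinoid receptor Cnr1 (-2.15) were DE in the same direction. The exceptions were Rasgrp2 (-0.05, adjusted p = 0.874) and Oprm1, the mu opioid receptor.

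Oprm1 was DE and higher in HT, but its direction depended on the probes used. With the probes of its transcript averaged the log2 difference was 1.11 (adjusted p = 0.00131; 1.14 and 0.0119 with the mouse as a fixed replicate block), and with 1 value per probe name it was -0.36 (adjusted p = 0.259).

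The largest falls included genes other than the usual striatal markers. Lrrc10b was 7.15, 8.36, 6.59 and 7.25 in HT and 12.39, 11.76, 12.57 and 12.99 in ST, a log2 difference of -5.12 ± 0.42 (SE, n = 4), 34.8-fold, with an adjusted p = 9.1e-05 in limma. Sh3rf2, a member of the list of striatal projection neuron genes, had a log2 difference of -5.12 too (34.7-fold, adjusted p = 0.000316), with HT well above background on 2 of 4 arrays. Arpp21, a cyclic AMP regulated phosphoprotein of the same list (-4.10), Actn2, an actinin of dendritic spines (-4.07), and Kcnj4, an inward rectifier potassium channel (-3.93), followed. Kcnj4 was as bright on the frontal cortex arrays of the same mice (mean 13.93) as in ST (13.88), so that it does not mark ST alone. The other genes of this paragraph had lower means in frontal cortex than in ST, such as Arpp21 (13.73 against 15.22) and Lrrc10b (8.81 against 12.43). Mhrt, a noncoding transcript, had a log2 difference of -4.61 (adjusted p = 0.00304), and was not DE with the slide as a fixed block (-4.91, adjusted p = 0.0154), without the ST array of L52 (-4.49, 0.0122) or without that of L56 (-4.52, 0.013). Tmprss6, a membrane protease, had the smallest adjusted p of all probes. It was 5.87, 6.16, 5.82 and 5.97 in HT and 9.49, 9.75, 9.92 and 10.13 in ST, 2 tight groups 3.91 ± 0.13 (SE) apart in log2, 15-fold higher in ST, with an adjusted p = 2.8e-06 in limma.

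Of 24 measured transcription factors of the striatum and telencephalon, 10 were DE and higher in ST, with a median log2 difference of -1.16. Bcl11b, needed for projection neuron identity, had a log2 difference of -3.74 (adjusted p = 0.000353), and Rarb, a retinoic acid receptor, one of -2.90 (adjusted p = 0.000246). Meis2 (-2.55, adjusted p = 0.00263) was not DE without the ST array of L52 (-2.42) or of L56 (-2.35). Isl1 (-0.29), Foxp2 (-0.37), Dlx1 (0.60) and Dlx2 (0.22), which both regions use, were not DE.

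Cortical genes were unevenly spread over the ST arrays. Of 15 measured, 2 were DE and higher in ST, against 3.22% of all genes, with a median log2 difference of -1.57. The mean log2 signal of the list was 8.14 to 9.86 in ST, highest on the arrays of L54 and L58, and 7.23 to 7.93 in HT. Lamp5 had a log2 difference of -2.50 (adjusted p = 0.00103) and Fezf2 one of -2.41 (adjusted p = 0.00443). Fezf2 was not DE with the mouse as a fixed replicate block (-2.45, adjusted p = 0.0231), nor without the HT array of L52 (-2.32), the HT array of L54 (-2.25) or the ST array of L58 (-2.16). The count of 2 was 9 without the ST array of L56, 4 without the HT array of L56, 3 (and 2 higher in HT) without the ST array of L54, and 1 without the HT array of L52, the HT array of L54 or the ST array of L58. The median was -2.87 without the ST array of L56 and -1.15 without that of L54.

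**Figure D4:**
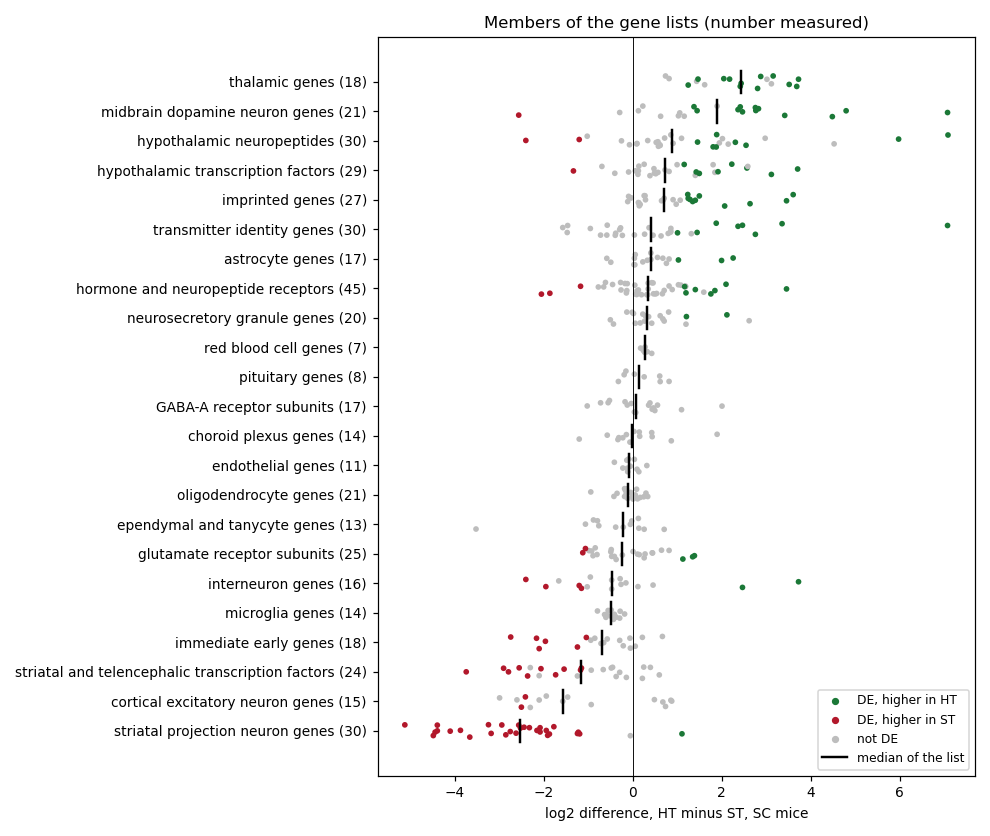
Log2 difference between HT and ST in SC mice (x axis, HT minus ST) of each measured member of 23 gene lists (y axis, with the number measured), green where DE and higher in HT, red where DE and higher in ST and gray otherwise, with a black bar at the median of a list. Thalamic genes had the highest median (2.43) and striatal projection neuron genes the lowest (-2.54).

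Of the 125 members of the lists that were DE, 78 stayed DE whichever array was left out, and 47 lost the call without at least 1 array. The latter include, beside the genes for which this is given singly, Cartpt, Ghrh, Gal, Grp, Nms, Lhx1, Onecut3, Zfhx3, Foxa2, Pdyn, Maob, Mc3r, Galr1, Oprl1, Kit, Nr4a1 and the imprinted genes Ndn, Peg10, Zim1, Usp29 and Nap1l5, all of which kept their direction. Grp shrank most among these, from 1.81 to 0.95 (adjusted p = 0.133) without the ST array of L56.

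Some of the genes for the synthesis, transport and breakdown of transmitters rose in HT. Of 30 measured, 8 were DE and higher in HT and 0 DE and higher in ST (1 without the ST array of L54 or of L56; 3 at an adjusted p under 0.05), with a median log2 difference of 0.42. They were Slc17a6, the dopamine genes Slc6a3, Th, Ddc and Slc18a2, the GABA transporter Slc6a11 (1.88, adjusted p = 0.00102), the glutamate transporter Slc1a6 (1.45) and the monoamine oxidase Maob (1.01). The GABA-synthesizing enzymes Gad1 (-0.72, adjusted p = 0.0091) and Gad2 (-0.39, adjusted p = 0.361) did not reach 2-fold, and the acetylcholine genes Chat (-0.95), Slc18a3 (-1.46) and Slc5a7 (-1.47) were not DE.

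Of 45 measured receptors for hormones and neuropeptides, 7 were DE and higher in HT, against 2.55% of all genes. Another 3 were DE and higher in ST, against 3.22% of all genes, and the median log2 difference was 0.35. Those higher in HT were the prolactin receptor Prlr (2.10, adjusted p = 0.0016), the calcitonin receptor Calcr (3.46, adjusted p = 0.00928), the vasopressin receptor Avpr1a (1.85), the receptor Trhr for thyrotropin-releasing hormone (1.76), the melanocortin receptor Mc3r (1.41), the galanin receptor Galr1 (1.20) and the nociceptin receptor Oprl1 (1.17). Prlr was 8.78, 8.46, 9.06 and 9.14 in HT and 7.94, 5.81, 6.95 and 6.81 in ST, without overlap. Calcr, whose groups overlapped through the ST array of L52 (7.97 against 7.53 on the HT array of L54) and which was well above background on 2 of 4 ST arrays, was not DE without the HT array of L52 (3.46), the HT array of L56 (3.36), the ST array of L54 (3.01) or the ST array of L58 (3.11). Higher in ST were Mchr1, the receptor of the Pmch peptide (-1.86, adjusted p = 0.00022), the delta opioid receptor Oprd1 (-2.05, adjusted p = 6.22e-05) and the substance P receptor Tacr1 (-1.17, adjusted p = 0.00594; -1.13 and 0.0135 with the mouse as a fixed replicate block). Mchr1 was 6.3, 6.55, 6.18 and 6.68 in HT and 8.57, 7.75, 8.3 and 8.68 in ST, so that receptor and peptide were each higher in the opposite region. The receptors Lepr for leptin (0.51, adjusted p = 0.0433), Mc4r (0.35), Insr for insulin (-0.17) and Esr1 for estrogen (1.19, adjusted p = 0.024) were not DE. The count of 7 higher in HT was 4 without the HT array of L52 and 3 without the ST array of L58. Tacr1 was not DE without the HT array of L52 (-1.06), of L54 (-1.16) or of L56 (-1.23), or without the ST array of L52 (-1.02) or of L56 (-0.79).

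Of 20 measured genes of peptide-storing granules, 2 were DE, both higher in HT, where 2.55% of all genes were, with a median log2 difference of 0.32. They were Resp18 (2.12, adjusted p = 0.000326 in limma) and Dpp6 (1.21, adjusted p = 0.000406). Dpp6 is a potassium channel partner, so its place on this list is loose. The largest difference was that of Baiap3, which acts in granule release (2.62, adjusted p = 0.012). It was not DE, and became DE in 7 alternatives at the same thresholds. The processing enzymes Pcsk1 (1.20, adjusted p = 0.0172) and Pcsk2 (-0.50, adjusted p = 0.0358) and the granins Chgb (0.02) and Scg2 (0.81) were not DE. The count was 4 without the ST array of L54.

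Imprinted genes, many of which act in hypothalamic growth and feeding circuits, were DE in the direction of HT. Of 27 measured, 10 were DE and higher in HT, against 2.55% of all genes, with a median log2 difference of 0.71. Magel2, a gene of the Prader-Willi region, was 11.54, 10.89, 11.58 and 12.37 in HT and 10.42, 7.7, 9.33 and 7.91 in ST. The groups did not overlap, and the log2 difference was 2.64 ± 0.46 (SE, n = 4; adjusted p = 0.00365 in limma), with the DE call lost without the HT array of L52 (adjusted p = 0.0102) or of L56 (0.0113). Asb4 (2.07, adjusted p = 0.00106), Ndn (1.29), Peg10 (1.41), Grb10 (1.25), Zim1 (1.5), Usp29 (1.24) and Nap1l5 (1.35) were DE as well, beside Dlk1 and Calcr. The brightest transcript of Gnas, the stimulatory G protein, fell just short of 2-fold (0.98, adjusted p = 0.00065), while 2 of its other transcripts were DE and higher in HT (1.54, adjusted p = 0.00102, and 1.73, adjusted p = 0.0065). Igf2, H19, Snrpn and Ube3a had differences of 0.28, 0.15, 0.14 and 0.17. The count of 10 was 5 without the HT array of L52, 3 without the HT array of L56, 6 without the ST array of L58 and 2 without array weights, while the list's median stayed between 0.63 and 1.04.

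Among 17 measured subunits of the GABA-A receptor 0 were DE in limma, where 2.55% of all genes were DE and higher in HT and 3.22% DE and higher in ST, too small a share to set 17 genes apart. Their median log2 difference was 0.07, and 9 had an unadjusted p under 0.05, as did 9814 of all 31395 probes. Gabrq, a subunit known from the hypothalamus, had a log2 difference of 2.01 (adjusted p = 0.0244), which was 1.98 (adjusted p = 0.00413) and DE with the mouse as a fixed replicate block and also DE without the HT array of L54. Without that array, without the ST array of L56 or with the slide as a fixed block 1 subunit was DE, and with all 23 arrays 2 were. Of 25 glutamate receptor subunits, 3 were DE and higher in HT, namely the NMDA subunits Grin2d (1.39, adjusted p = 0.000473) and Grin3a (1.13, adjusted p = 0.00179) and the kainate subunit Grik1 (1.35, adjusted p = 0.000414). The 2 metabotropic receptors Grm4 (-1.12, adjusted p = 0.00628) and Grm5 (-1.06, adjusted p = 0.0029) were DE and higher in ST, as was the dimmer of the transcripts of the NMDA subunit Grin1 (-1.3, adjusted p = 0.00688), whose brighter one was not (-0.48). With the mouse as a fixed replicate block Grin3a (1.11, adjusted p = 0.0134), Grm4 (-1.07, 0.0265) and Grm5 (-1.02, 0.0234) were not DE, and Grm4 had a difference of -0.06 (adjusted p = 0.873) with 1 value per probe name. Grin3a lost its call without the ST array of L54 (0.92) or L58 (0.99), and Grm5 without that of L52 (-0.94) or L56 (-0.91). For Grm4 this was so without any 1 of the HT arrays of L52, L56 and L58 or of the ST arrays of L52, L56 and L58 (-0.99 to -1.14).

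Immediate early genes, which neurons switch on with activity, were in part higher in ST. Of 18 measured, 6 were DE and higher in ST, with a median log2 difference of -0.68. Egr4 had a log2 difference of -2.74 (adjusted p = 0.00151), Homer1 of -2.16 (adjusted p = 0.000123), Egr2 of -2.10 (adjusted p = 0.000145), Egr1 of -1.96, Fosb of -1.24 and Nr4a1 of -1.04. Egr1 was 10.74, 11.04, 10.92 and 9.96 in HT and 12.53, 12.88, 12.74 and 12.56 in ST, without overlap. Fos went the other way (0.67, adjusted p = 0.00645) and did not reach 2-fold, and Arc (-0.85) and Npas4 (-0.57) were not DE.

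Of 16 interneuron genes, 4 were DE and higher in ST (against 3.22% of all genes) and 2 DE and higher in HT (against 2.55%). The former were Npy, Sst, the secreted glycoprotein Reln (-1.95, adjusted p = 5.79e-05) and the receptor Kit (-1.15), and the latter Calb2 and Th. Pvalb (-0.26), Nos1 (-0.15) and Chat were not DE.

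At the share of DE genes over all genes (2.55% and 3.22%), lists of 7 to 21 genes would hold few or none, so a count of 0 does not set them apart. None of 21 oligodendrocyte genes (median log2 difference -0.11), 11 endothelial genes (-0.09), 13 ependymal and tanycyte genes (-0.21), 14 choroid plexus genes (-0.02), 8 pituitary genes (0.15) and 7 red blood cell genes (0.28) was DE in limma. Of these lists 3, 2, 4, 2, 2 and 0 genes had an unadjusted p under 0.05, where 9814 of all 31395 probes did. The largest differences in these lists were those of Crym, a thyroid hormone binding protein on the ependymal and tanycyte list (-3.52, adjusted p = 0.0259; DE at -4.32 without the HT array of L54), and of the transcription factor Otx2 on the choroid plexus list (1.90, adjusted p = 0.012; DE in 5 alternatives at the same thresholds). The medians of the endothelial, oligodendrocyte, ependymal, choroid plexus and pituitary lists changed sign in at least 1 alternative. Of 17 astrocyte genes 3 were DE and higher in HT, with a median of 0.41. They were Agt, the precursor of angiotensin (2.26, adjusted p = 0.00351), Itih3 (2, adjusted p = 0.00703) and the gap junction gene Gjb6 (1.03, adjusted p = 0.00111), and 1 of them was DE without the HT array of L56 or the ST array of L58. Gfap (0.03) and Aldh1l1 (0.23), the common astrocyte markers, did not pass the test. All 14 microglia genes had a lower value in HT, none by 2-fold, and 8 of them had an adjusted p under 0.05 (13 an unadjusted p under 0.05). Over all 18687 genes 1928 were higher in ST at an adjusted p under 0.05. Cx3cr1, the fractalkine receptor, was 11.01, 10.67, 10.87 and 10.75 in HT and 11.48, 11.34, 11.45 and 11.51 in ST, 2 groups that did not overlap, a log2 difference of -0.60 ± 0.11 (SE, n = 4; adjusted p = 0.0055 in limma). The mean log2 signal of the microglia list was 10.67 to 10.97 in HT and 11.15 to 11.45 in ST. Ttr, the leading choroid plexus gene, ranged from 9.13 to 14.02 in HT and from 10.61 to 14.16 in ST, with a log2 difference of -1.20 (adjusted p = 0.507).

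The 4 probes picked because their difference shrank most when the slide was made a fixed block were Hspa12a, a heat shock protein family member (1.14 to 0.60), a long intergenic noncoding RNA probe of chromosome 8 (1.38 to 0.94), the transcript ENSMUST00000128327 (-2.64 to -1.95) and Phex, a peptidase (-3.79 to -3.12). Phex was well above background on 1 of 4 HT arrays. Hspa12a was not DE with the mouse as a fixed replicate block either (1.20, adjusted p = 0.0181).

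Protein-coding genes held most of the DE probes. Among 17858 probes for RefSeq messenger RNAs, 457 were DE and higher in HT and 597 DE and higher in ST, 5.9% in all, at a median log2 signal of 8.98. Among 4156 probes for long intergenic noncoding RNAs, 17 and 55 were DE, 1.73%, but these probes were dimmer, with a median log2 signal of 5.87. Of 1401 genes measured by several transcripts, 117 had at least 1 DE transcript. In 51 of these every transcript was DE, in 66 some were not, and no gene was DE in both directions.

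The same comparison in CM mice, which share no array with the SC mice, gave 2677 DE probes of 31395, which is 8.53%, 1329 higher in HT and 1348 higher in ST. The CM mice had other food for 8 weeks, and their HT arrays were all on slide 2 and their ST arrays all on slide 1, so that slide and region cannot be told apart there. All 1447 DE probes of SC mice had the same direction in CM mice, against 77.2% of all probes. Of them 1327 were also DE in CM mice, which is 91.7% of the SC list and 49.6% of the CM list. In CM mice Hcrt had a log2 difference of 6.72, Pmch 6.46, Slc17a6 4.05, Slc6a3 6.39 and Drd2 -3.49. The Hcrt signal of the CM arrays was 16.6, 16.03, 16.37 and 13.05 in HT and 10.92, 6.73, 9.49 and 7.47 in ST, which did not overlap. Oxt, which was not DE in SC mice, was DE in CM mice (5.07, adjusted p = 0.001).

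**Figure D5:**
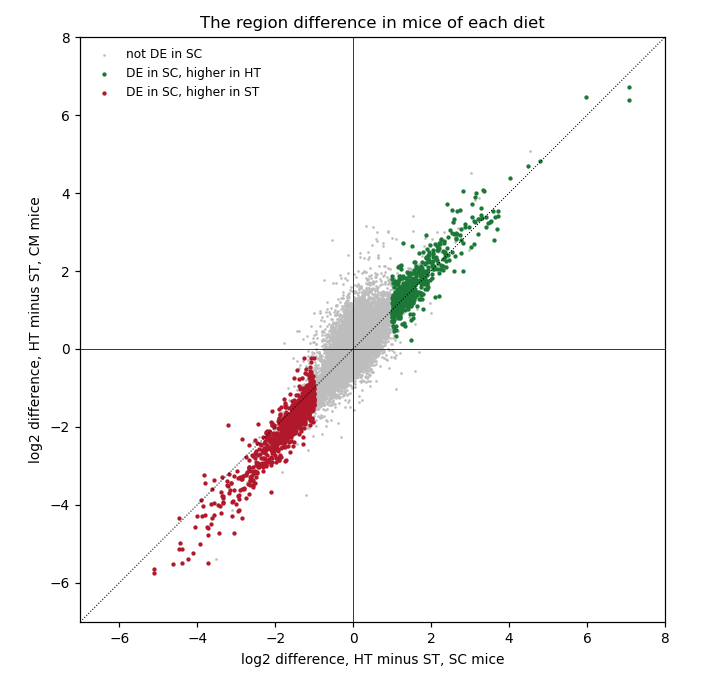
Log2 difference between HT and ST in SC mice (x axis) and in CM mice (y axis), with 1 point per probe, the dotted line marking equal differences and colors marking the 584 probes higher in HT (green) and 863 higher in ST (red) in SC mice. Every colored point lies in the quadrant of the same sign in both diets.

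Whether the region difference itself differed between diets was tested as an interaction in the 16 arrays. It had an adjusted p under 0.05 for 402 probes (4925 at an unadjusted p under 0.05), but in limma for 0 without the HT array of L52 (4754 unadjusted) and for 1397 without the ST array of L52, so that the number depended on each of these 2 arrays. Leaving out the other arrays was not tried for the interaction. None of the 107 genes and probes chosen by the naming rule given below was among the 402. List members named only as examples are not covered by this.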

How the data were processed

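RNA of HT and ST of 4 SC and 4 CM mice was labeled with Cy3 and hybridized to Agilent SurePrint G3 Mouse 8x60K arrays, and scanned. The authors deposited the linear spot intensities of Feature Extraction 10.7.3.1. The authors also deposited a table of log2 values, made in limma from median intensities by normexp background correction (offset 0), quantile normalization over 23 arrays, a filter on dim probes (a signal over 1.1 times that of negative controls, taken at their 95th percentile, on 4 or more arrays), and averaging by transcript identifier. The deposited values were used, and values rebuilt from the intensities differed from them by at most 5e-09 over 31395 identifiers. Of these, 20203 (64.4%) received a gene symbol, 18004 of them by accession. A gene with several transcripts is taken in the lists at its brightest one.

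The fit used limma 3.58.1 (R 4.3.3, with statmod 1.5.0) on the 8 SC arrays, with 2 group means, weights estimated gene by gene for the arrays and a random effect of the mouse (estimated correlation -0.0034). Its statistics were moderated by empirical Bayes, and p was adjusted by Benjamini-Hochberg over all 31395. The code was tested on simulated data. DE means an adjusted p under 0.01 and at least 2-fold. The 4 HT and 4 ST arrays pair by mouse through the number in their names, and the same-mouse correlations of deviations from the group means were 0.002, 0.05, 0.012 and -0.165. The arrays of a region come from separate mice, and their number limits the precision. Where no array of the dimmer region was well above background, the fold is a lower bound, set against the higher of each array's lowest signal well above background and the probe's own signal.

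Genes were named by a rule: the 12 largest rises and the 12 largest falls with groups that did not overlap, the same sign in all 4 mice and an adjusted p under 0.05 with the slide as a fixed block, 4 probes that shrank most with that block, Hcrt, Pmch, Slc17a6 and Drd2, and per list the 4 largest differences and any DE gene against the list's direction. Some genes chosen by the rule are not reported here. The comparison, the estimator of array weights and the gene lists were chosen with earlier results of these data known. Other list members named are examples chosen after their values were seen. Alternatives changed the blocks, the weights, the arrays fitted, the normalization, the filter, the averaging and the thresholds, and left out each array in turn.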

Additional observations from a re-analysis of the deposited data

Results flagged for a closer look

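Among the 4 arrays of a region, 13 of 214 groups tested held an array far from the other 3 for a gene named here, where chance flags about 1 in 20 groups.

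The HT array of L54 stood apart for 4 genes. It was high in the striatal genes Drd1 (9.06, against 6.66 to 7.04 on the other HT arrays), Adora2a (10.53, against 8.04 to 8.07) and Rarb (9.27, against 8.21 to 8.34), and low in Hcrt (13.24, against 16.61 to 16.73). The ST array of L52 stood apart with high Hcrt (15.45, against 7.67 to 7.83 on the other ST arrays) and Hmx3, a hypothalamic transcription factor (7.33, against 5.00 to 5.10), and by a small margin with low Slco1c1, an endothelial transporter (10.01, against 10.07 to 10.08).

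The ST array of L54 was low in Rarb (10.76, against 11.61 to 11.78) and Tacr1 (8.77, against 9.62 to 9.65). The ST array of L58 was low in Gjb6 (12.21, against 12.91 to 13.05) and Homer1 (11.69, against 12.01 to 12.07), and that of L56 in the beta-globin gene Hbb-bs (9.89, against 10.32 to 10.37). Pomc was high on the HT array of L58 (12.8, against 9.43 to 9.57).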

How the results depend on the processing

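The DE counts of 584 higher in HT and 863 higher in ST stayed within 1.5 times in every alternative at the same thresholds (434 to 766 and 636 to 1201), and were 1765 and 2006 at 1.5-fold and an adjusted p under 0.05. With 1 array left out they ranged from 452 to 634 and from 778 to 927. Among DE probes the share higher in HT was 40.4%, and 48% when slides were fitted as fixed blocks. With the mouse as a fixed replicate block, a paired fit, 1201 probes were DE and 1147 of the 1447 remained. Without any replicate block 1449 were DE. Of 107 genes and probes named, 67 were DE, of which 41 stayed so in every alternative. The 66 with the same sign throughout leave out Oprm1 (-0.36 with 1 value per probe name). The paired fit lost 12 named calls and gained 1, all given above. Genes that were not DE changed sign as follows: Pecam1 (-0.14) and Pomc (-0.067) within slide 3, Ccdc153 (0.52), Calml4 (0.40), Lhb (-0.025) and Tbx19 (0.22) within slide 2, and with 1 array left out Ccdc153 from -1.20 to 0.45, Calml4 from -0.98 to 0.65 and Alas2 from -0.12 to 0.57. The share of DE probes with the same direction in CM mice was 100%, and 99.85% for the list made without the ST array of L52. The 402 probes of the diet interaction became 0 without array weights (3000 at an unadjusted p under 0.05), 542 with REML weights and 156 with all 23 arrays, and ranged from 0 to 1397 with the HT or the ST array of L52 left out. These alternatives of the interaction, and the list without the ST array of L52, were chosen after seeing the data. The cause of these changes was not tested. Dim probes limit what can be said: in 223 DE probes the dimmer region was not well above background on all 4 arrays, and in 83 on none.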
